A study of Oryza sativa with 3 samples.

Results

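Metal transporters were examined in rice leaf RNA, as all genes named ZIP, IRT, YSL, NRAMP, HMA, MTP or VIT with a number in the symbols or synonyms of the gene table, bZIP transcription factors left out. The rule itself uses names alone and no measured value. It gave 48 genes: 10 ZIP, 2 IRT, 6 NRAMP, 6 MTP, 2 VIT, 18 YSL and 4 HMA genes. Of these, 41 were among the 17905 genes with a probe set of their own on the array, and 27 were among the 14397 genes whose mean signal lay above a floor, set so that 50% of all signals lie under it (log2 signal 5.50). Genes above that floor are called measured here.

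The study used 1 array for each of 3 samples: untransformed Guichao2, an indica cultivar that served as the control, and Guichao2 lines B10201 and B10301, each carrying an OsEBS transgene. The OsEBS gene has been described as raising plant biomass and the number of spikelets, and the comparison asks which leaf transcripts differ in plants that carry it. Every sample was a pool of leaves from 10 plants aged 6 weeks, grown without treatment at 28 °C under 14 h light and 10 h dark; the promoter of the transgene and the number of insertions are not given in the sources used here. The lines are the only replicates of the transgenic group and the control has none, so p-values rest on the spread between these lines. That spread may in part be technical, and the limma test drew each gene's own towards the spread of probe sets of similar signal. A p-value is therefore not set by the SD of a gene's lines alone. The number of arrays limits the precision of every value.

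Iron, zinc, manganese and copper are carried across plant membranes by a small set of protein families. ZIP and IRT proteins move divalent zinc or iron into the cytosol, and NRAMP proteins carry manganese, iron or cadmium in the same direction, across the plasma membrane or out of the vacuole. VIT proteins and most MTP proteins (cation diffusion facilitators) move metals from the cytosol into the vacuole or other compartments. YSL proteins carry metals bound to nicotianamine or mugineic acids and serve phloem and long-distance transport, and HMA proteins are ATP-driven pumps that load the xylem or the vacuole. In grasses, iron is taken up by roots both as the free ion and as a complex with secreted mugineic acids, and leaves receive, store and pass on the metals.

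Array-wide values were alike. The median log2 signals were 5.41 in control leaves, 5.56 in B10201 and 5.54 in B10301, and linear means trimmed at both ends lay between 497.4 and 497.5. In 2 stretches of the table, of 6717 and 988 probe sets, the B10301 values stood 1 row away from their probe set and were moved back; their correlation across probe sets with the mean of the other arrays went from 0.397 to 0.939 in the longer stretch and from 0.051 to 0.823 in the shorter one. Of the measured transporters, ZIP1, MTP1, YSL5 and YSL14 lie in these stretches, and of those below the floor HMA2, YSL7 and NRAMP5. Leaf markers were high on all arrays: the Rubisco small subunit gene RBCS had log2 signals of 15.09, 15.34 and 15.43 (control, B10201, B10301), and RCA, Rubisco activase, 15.40, 15.57 and 15.93. The antenna protein gene CAB2R was at 15.57, 14.10 and 15.33, and RBCS1 was below the floor by its mean signal. Of 6 root symbols listed, 3 had a probe set: their summed log2 signal was 9.90, 10.28 and 10.36, most of it from the silicon channel gene LSI1, while the silicon efflux gene LSI2 was below the floor on each array.

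Leaves of both transgenic lines had lower signals than the control for most measured genes of the ZIP and IRT families of zinc and iron transporters. Signals above the control in both lines were found for 5 of the 27 (NRAMP4, NRAMP6, VIT1, YSL6 and YSL14), compared with 37.8% of all genes measured. Lower signals by at least 1.5-fold in both lines were found for 7 of the 27 measured transporters, namely ZIP1, ZIP2, ZIP5, ZIP8, IRT1, YSL12 and YSL13, against 7.44% of all genes measured. Only NRAMP6 was at least 1.5-fold higher in both, against 6.81% of all genes. ZIP1 alone was at least 2-fold lower in both lines, against 2.61% of all genes. Over the 27 transporters the median log2 ratio to the control was -0.42 in B10201 and -0.36 in B10301, while over all genes it was -0.02 and -0.01. Below the control lay 22 of the 27 in B10201 and 19 in B10301, compared with 52.1% and 51.2% of all genes. Both lines were set against the same control array, so a deviation of that array enters both ratios. With pooled leaf tissue, fewer cells of a type and less RNA per cell cannot be told apart.

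No single transporter passed the test. limma, fitted to all 26475 probe sets above the floor with 1 residual degree of freedom, called 0 of them (0% of those tested) after Benjamini-Hochberg adjustment (lowest adjusted p = 0.0868), while 4520 (17.1%) had an unadjusted p under 0.05. Of the 27 transporters, 10 had an unadjusted p under 0.05, 8 lower and 2 higher, compared with 20.2% of all genes. Their adjusted p ranged from 0.200 for YSL13 to 0.890 for ZIP4. The words higher and lower below therefore describe measured signals and are not calls.

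**Figure D1:**
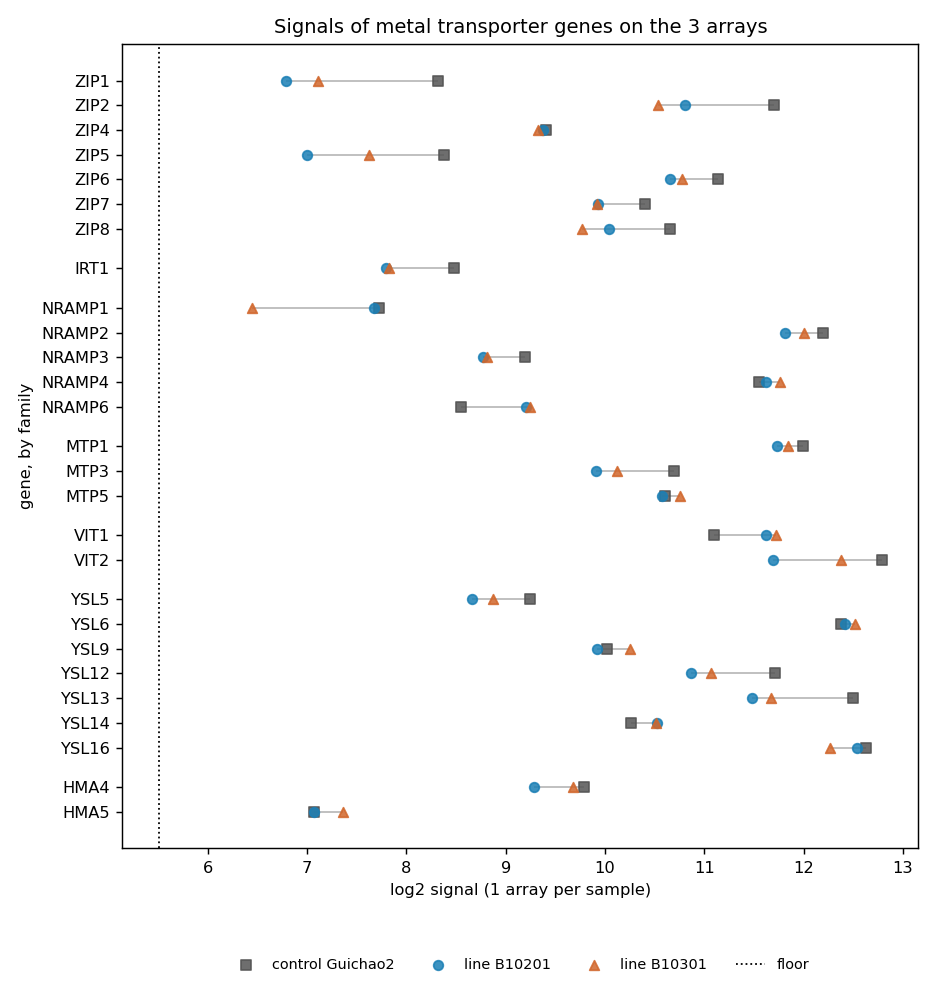
Log2 signals of the 27 measured transporter genes (rows, by family) on each of the 3 arrays, 1 point per array; the dotted line is the floor at 5.50. For ZIP1, ZIP2, ZIP5, ZIP8, IRT1, YSL12 and YSL13, among others, both lines lie to the left of the control. For NRAMP4, NRAMP6, VIT1, YSL6 and YSL14 both lie to the right. Positions of different genes come from different probe sets and are not comparable.

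The ZIP family was lower than the control as a whole. Some ZIP names are shared in the gene table, where ZIP8 is also listed as ZIP1, ZIP5 as ZIP2 and ZIP7 as ZIP3. Functions below are those described for the printed name. ZIP1, which in rice has been described as a zinc and copper transporter, had log2 signals of 8.32 in control leaves, 6.79 in B10201 and 7.11 in B10301. Both lines lay below the control, 2.88-fold and 2.30-fold, averaging -1.36 ± 0.23 as a log2 ratio (SD, n = 2 lines; limma adjusted p = 0.242). This value rests on the moved B10301 signal: with the table as deposited the mean ratio was 0.33. ZIP2 was at 11.70 in control leaves, 10.80 in B10201 and 10.53 in B10301. The lines were 1.86-fold and 2.24-fold lower, a mean of -1.03 ± 0.19 (limma adjusted p = 0.206). ZIP5, a transporter of zinc uptake that neighbours ZIP9 on chromosome 5, was at 8.38, 6.99 and 7.63 in the same order. It was 2.61-fold lower in B10201 and 1.68-fold lower in B10301, so that the lines stood 1.55-fold apart while both remained below the control. ZIP8 was at 10.65 in control leaves, 10.04 in B10201 and 9.77 in B10301, lower by 1.52-fold and 1.84-fold.

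The other ZIP genes differed less from the control. ZIP6 was at 11.14 in control leaves, 10.66 in B10201 and 10.78 in B10301, and ZIP7, which in rice serves the movement of zinc and iron through vascular tissue, at 10.41, 9.93 and 9.92. Both lay below the control in each line, with mean log2 ratios of -0.42 ± 0.09 and -0.48 ± 0.01 (SD, n = 2 lines). ZIP4, a zinc transporter of vascular tissue, had nearly the same signal on all arrays, 9.40 in control leaves, 9.37 in B10201 and 9.33 in B10301, and its mean log2 ratio of -0.05 became 0.02 with quantile normalization. Over the 7 measured ZIP genes the median log2 ratio was -0.60 in B10201 and -0.75 in B10301, and all 7 had a signal below the control in each line, although the mean of ZIP4 was above it with quantile normalization. ZIP3 was below the floor, at 2.65 or less on every array, and ZIP9 and ZIP10 had no probe set of their own.

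IRT1, the iron transporter that takes up ferrous iron in rice roots, was at 8.48 in control leaves, 7.80 in B10201 and 7.82 in B10301. The lines differed little from each other and were 1.60-fold and 1.57-fold lower than the control (limma adjusted p = 0.331). Of the root markers, LSI1 was higher in both lines, at 9.74, 10.18 and 10.15 (control, B10201, B10301). PHO1-2 was lower in B10201 and higher in B10301, at 6.59, 6.37 and 7.51, and LSI2 was below the floor. Whether root RNA had a part in the IRT1 value was not tested. IRT2, its neighbour on chromosome 3 with 1 coding gene between them, was below the floor, with signals from 1.10 to 4.22. ZIP2, ZIP5, YSL12 and YSL13 kept a difference of at least 1.5-fold below the control under each of the 11 settings compared, the line left out in turn included. For these genes only quantile normalization and centred arrays could alter the call. The other settings returned the main value, and with a line left out the call in both lines had already fixed the outcome. ZIP8 and IRT1 did not with quantile normalization, and ZIP1 did not with values as deposited or with the displaced stretches left out, where it had no value.

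NRAMP genes went both ways. NRAMP6 was at 8.55 in control leaves, 9.21 in B10201 and 9.25 in B10301. The lines were close together and 1.58-fold and 1.62-fold above the control (limma adjusted p = 0.259), and with arrays centred on their medians the gene no longer reached 1.5-fold. NRAMP1, a transporter of iron, manganese and cadmium into rice roots, was at 7.73 in the control and 7.68 in B10201 but at 6.45 in B10301. B10201 was close to the control and B10301 was 2.43-fold below it, and the spread between the lines (mean -0.67 ± 0.87, SD, n = 2 lines) exceeded the mean. NRAMP3, which in rice distributes manganese at the nodes, was at 9.20, 8.77 and 8.81 (control, B10201, B10301), and NRAMP2, described as a vacuolar metal transporter, at 12.20, 11.82 and 12.00. Their means were -0.41 ± 0.03 and -0.29 ± 0.13, below the control in both lines.

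NRAMP4 was the one transporter with several probe sets above the floor, and these disagreed. The one with the highest signal, used for the gene, was at 11.55 in control leaves, 11.62 in B10201 and 11.76 in B10301, for an average log2 ratio of 0.14 ± 0.10 (SD, n = 2 lines) that turned to -0.0030 with centred arrays. Of the other 4 probe sets, 2 were above the control in both lines, with ratios between 0.22 and 0.58, 1 was below it in both (-0.82 and -0.38) and 1 went opposite ways (-0.15 and 0.43). The names NRAMP4 and NRAMP6 are those of the gene table; both have been used for more than 1 rice locus, so no function is described for either. NRAMP5, the main manganese and cadmium uptake transporter of rice roots, was near the floor at 5.24 in control leaves, 5.79 in B10201 and 5.13 in B10301. It lies in the last row of the longer displaced stretch, and its deposited B10301 value was 5.93.

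The vacuolar iron transporters VIT1 and VIT2, which in rice load iron and zinc into leaf vacuoles, differed from the control in opposite directions. VIT1 had linear signals of 2196 in control leaves, 3153 in B10201 and 3366 in B10301. Both lines lay above the control, 1.44-fold and 1.53-fold, averaging 0.57 ± 0.07 as a log2 ratio (SD, n = 2 lines; limma adjusted p = 0.218). VIT2 was at 12.79 in control leaves, 11.69 in B10201 and 12.37 in B10301. It was 2.15-fold lower in B10201 and 1.34-fold lower in B10301, the lines being 1.61-fold apart (mean -0.76 ± 0.48; limma adjusted p = 0.371). Whether the 2 genes differed from each other was not tested.

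MTP genes were lower or close to the control. MTP1, which carries zinc into the vacuole, was at 11.99 in control leaves, 11.73 in B10201 and 11.84 in B10301, with log2 ratios of -0.26 and -0.15; as deposited its mean ratio was -1.84 in place of -0.21. MTP3 was at 10.70 in control leaves, 9.91 in B10201 and 10.13 in B10301. It was lower in both lines, 1.73-fold and 1.48-fold (mean -0.68 ± 0.15, SD, n = 2 lines; limma adjusted p = 0.242), just inside the 1.5-fold limit in B10301. MTP5 was at 10.60, 10.57 and 10.76, with ratios of -0.03 and 0.15 on either side of 0. MTP3, MTP4, MTP5 and MTP7 carry numbers of the gene table that differ between naming schemes, so no metal is given for them. MTP4 and MTP7 were below the floor by their mean signal, although 1 of the probe sets of MTP4 reached 6.48 in B10301, and MTP8 had no probe set of its own.

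**Figure D2:**
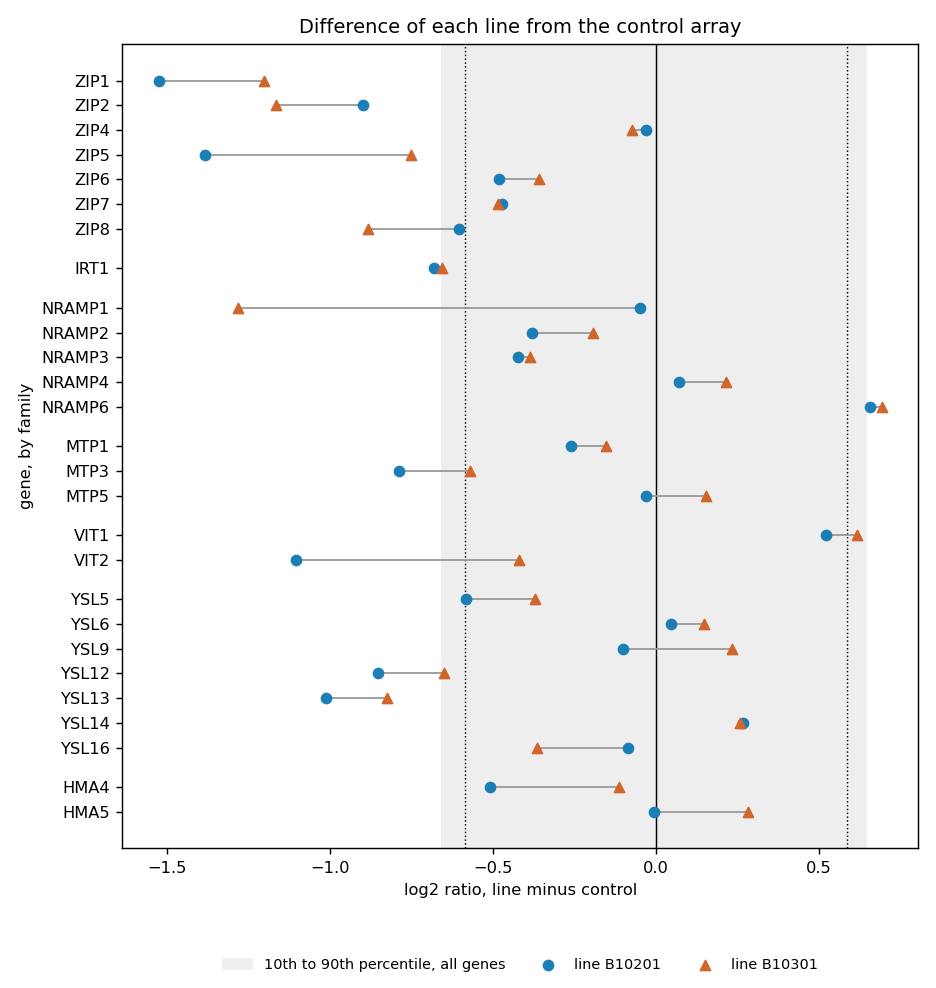
Log2 ratio of each line to the control array for the 27 measured transporter genes (rows, by family); the grey band spans the 10th to 90th percentile of all genes measured, averaged over the lines, and the dotted lines mark 1.5-fold. ZIP1, ZIP2, ZIP5, ZIP8, IRT1, YSL12 and YSL13 are left of the lower 1.5-fold line in both lines, whereas NRAMP1 is far from the control in B10301 alone.

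Among YSL genes, the neighbours YSL12 and YSL13 were the most reduced in signal. YSL13, which in rice acts in the distribution of iron to leaves, was at 12.49 in control leaves, 11.48 in B10201 and 11.67 in B10301. The lines were 2.02-fold and 1.77-fold lower, averaging -0.92 ± 0.13 as a log2 ratio (SD, n = 2 lines; limma adjusted p = 0.200, unadjusted p = 0.0045). YSL12 was at 11.72 in control leaves, 10.86 in B10201 and 11.07 in B10301. It was 1.80-fold and 1.57-fold lower (mean -0.75 ± 0.14; limma adjusted p = 0.212). Its other probe set was below the floor on all arrays. YSL5 was lower to a smaller degree, at 9.25 in control leaves, 8.66 in B10201 and 8.87 in B10301, but its mean ratio of -0.48 was -2.16 as deposited.

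The remaining measured YSL genes stayed near the control. YSL6, which in rice helps leaves tolerate excess manganese, was at 12.37 in control leaves, 12.42 in B10201 and 12.52 in B10301; its mean of 0.10 became -0.048 with centred arrays. YSL16, a phloem transporter of metals bound to nicotianamine, was at 12.63 in control leaves, 12.54 in B10201 and 12.26 in B10301. Both lines were below the control, by log2 ratios of -0.09 and -0.36. YSL14 was at 10.26 in control leaves, 10.53 in B10201 and 10.52 in B10301, slightly above the control in both lines, but as deposited its mean ratio was -2.24. YSL9 was at 10.02, 9.92 and 10.25, on either side of the control. YSL15, the root transporter of iron bound to deoxymugineic acid, and YSL18, which carries the same complex in reproductive organs and phloem, were below the floor by their mean signal, with highest values of 5.28 and 5.56. The other 6 YSL genes below the floor were YSL1, YSL4, YSL7, YSL8, YSL10 and YSL11; of these YSL7 reached 6.13 in B10201 alone (its B10301 value was 2.94 after the move and 10.32 as deposited) and YSL8 6.23 in B10301 alone. YSL2, YSL3 and YSL17 had no probe set of their own.

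Both measured HMA pumps were within 1.5-fold of the control in each line. HMA4, which stores copper in rice vacuoles, was at 9.79 in control leaves, 9.28 in B10201 and 9.68 in B10301, averaging -0.31 ± 0.28 as a log2 ratio (SD, n = 2 lines). HMA5, which loads copper into the xylem, was at 7.07 in control leaves, 7.07 in B10201 and 7.36 in B10301. B10201 matched the control and B10301 lay above it by 0.28. HMA2, the pump that moves zinc and cadmium from root to shoot, was below the floor after its B10301 value was moved, at 1.80 in control leaves, 4.12 in B10201 and 4.57 in B10301 (12.80 as deposited). HMA9, which the gene table also lists as HMA5, had no probe set of its own.

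By family group, signals of the uptake families (ZIP, IRT and NRAMP, 13 measured genes) lay farthest below the control. Their median log2 ratio was -0.47 in B10201 and -0.48 in B10301. Of the 13, 11 were below the control in each line, compared with 52.1% and 51.2% of all genes. Within this group the 8 ZIP and IRT genes had medians of -0.64 and -0.70, and all lay below the control. The 5 NRAMP genes had medians of -0.05 and -0.19, with 3 below the control in each line. The vacuolar families (MTP and VIT, 5 genes) had medians of -0.26 and -0.15, with 4 and 3 genes below the control, the latter near the share of all genes. For the long-distance families (YSL and HMA, 9 genes) the medians were -0.10 and -0.11, with 7 and 5 genes below, the latter again near the share of all genes. The direction of this group was not stable: its median over gene means, -0.23, turned to 0.097 with the floor at the 25th percentile (15 genes) and to 0.12 with no floor (18 genes). The share at least 1.5-fold lower in both lines was 5 of 13 uptake genes, 0 of 5 vacuolar genes and 2 of 9 long-distance genes, against the 7.44% of all genes given above. Genes of a family are not replicates of a condition, so the difference between the groups was not tested. The families also mix functions. Genes were therefore also grouped by a function assigned to each. This left 6 unassigned, with mean log2 ratios of -1.03 (ZIP2), -0.75 (YSL12), -0.68 (MTP3), -0.48 (YSL5), 0.06 (MTP5) and 0.26 (YSL14). NRAMP2, HMA4 and YSL6 were counted as vacuolar or internal, and ZIP4, ZIP7 and NRAMP3 as long-distance. The other NRAMP genes were counted as uptake (NRAMP4 and NRAMP6 by family alone). Without the unassigned genes, the medians over gene means were -0.67 (8 uptake genes), -0.25 (6 vacuolar genes) and -0.23 (7 long-distance genes). By family they were -0.48, -0.21 and -0.23.

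**Figure D3:**
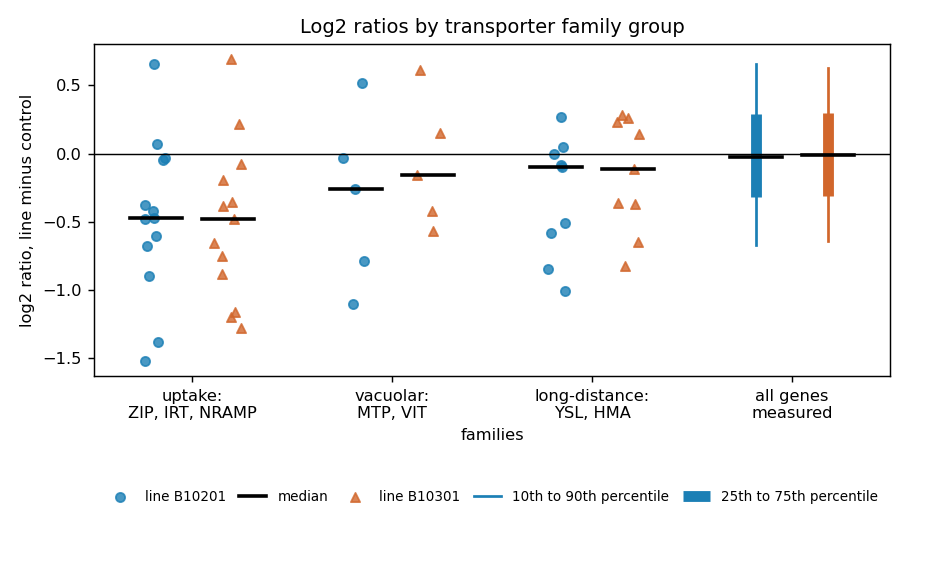
Log2 ratios of each line to the control by family group, 1 point per measured gene (13 uptake, 5 vacuolar and 9 long-distance genes), with black bars at the medians; at the right, thick and thin lines give the 25th to 75th and the 10th to 90th percentiles of all 14397 genes. The medians of the uptake families lie at -0.47 and -0.48; the percentiles are of single genes and are no measure of how far the median of a group varies.

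The lines differed from each other for few transporters. NRAMP1, ZIP5 and VIT2, 3 of the 27, were at least 1.5-fold apart between B10201 and B10301, next to 11.8% of all genes, a share near the background. ZIP5 and VIT2 were lower in B10201, and NRAMP1 was lower in B10301. The median absolute difference between the lines was 0.19 on the log2 scale over the transporters and 0.18 over all genes.

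Other genes of metal handling, sought by 54 symbols for mugineic acid synthesis, metal efflux, reduction, storage, other metal carriers and iron regulators, were matched to 20 genes. Of these, 12 were measured, 3 were below the floor, 3 had no probe set of their own and 2, listed as tom1 and tom2, were set aside because that symbol also names an unrelated gene family. Most of the 12 are copper (COPT) and cation (CAX) carriers, and none is a listed gene of efflux, reduction or storage. NAAT1, nicotianamine aminotransferase, which makes the precursor of mugineic acids, was the 1 gene of the 12 at least 1.5-fold lower in both lines, and none was higher by that much, against 7.44% and 6.81% of all genes, so that the count is near the background. NAAT1 was at 12.79 in control leaves, 11.50 in B10201 and 11.35 in B10301. Both lines lay well below the control, 2.46-fold and 2.71-fold, averaging -1.37 ± 0.10 as a log2 ratio (SD, n = 2 lines; limma adjusted p = 0.200, unadjusted p = 9.0e-04). NAS3, a nicotianamine synthase, was at 9.94, 9.28 and 9.79, below the control mainly in B10201, and NAS1 and NAS2 were below the floor. SAMS2, an S-adenosylmethionine synthetase, was at 11.52, 10.78 and 11.64, below the control in B10201 (-0.74) and above it in B10301 (0.12).

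Of the regulators, the basic helix-loop-helix gene listed under both IRO2 and IRO3, names of factors of the iron deficiency response, was at 9.04 in control leaves, 8.60 in B10201 and 8.07 in B10301. It was below the control in both lines, with ratios of -0.44 and -0.97. IDEF1, a factor that acts early in that response, was at 10.49, 11.06 and 10.73, above the control by 0.57 and 0.24. Over the 12 genes the median log2 ratio was -0.34 in B10201 and -0.15 in B10301. Below the control lay 10 and 9 of them, compared with 52.1% and 51.2% of all genes.

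**Figure D4:**
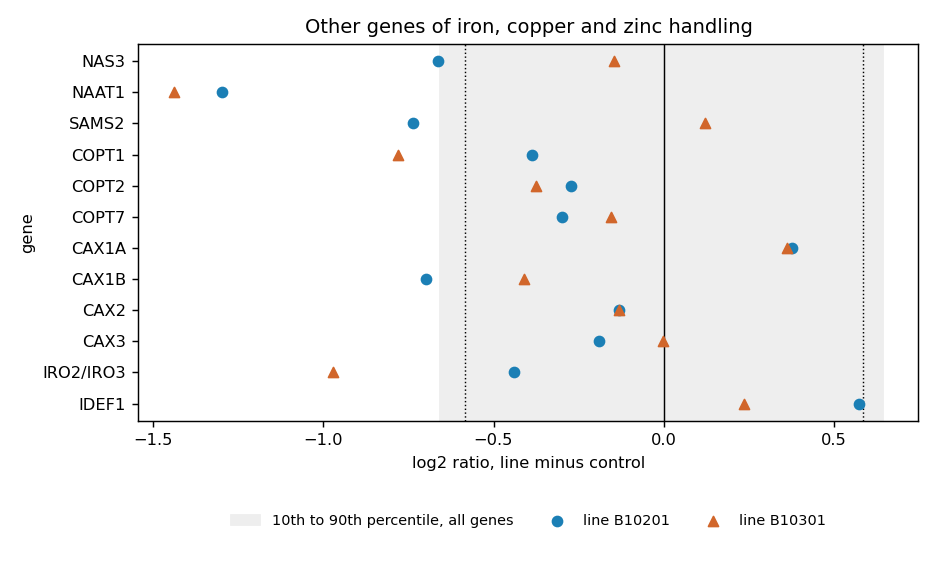
Log2 ratio of each line to the control array for the 12 measured genes of mugineic acid synthesis, copper (COPT) and cation (CAX) transport and iron regulation; grey band and dotted lines mark the 10th to 90th percentile of all genes, averaged over the lines, and 1.5-fold. NAAT1 lies at -1.30 in B10201 and -1.44 in B10301, and most of the other genes lie inside the band.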

How the data were processed

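RNA from leaves was labelled with biotin by in vitro transcription from the 3' end and hybridised to 3 Affymetrix rice arrays, per the labels' protocols. Values in the deposited table are on the log2 scale and come from the authors' MAS5 run, as the submitters' processing notes state; version, scaling target and detection calls are not given in the sources used here. No normalization was added. B10301 values in 2 stretches of the table were moved by 1 row; their ends could be off by a row. Values were raised to the median of all signals (5.50), and the 26475 of 57194 probe sets with a mean above it were kept. Gene names came from the platform annotation and the gene table of assembly ASM3414082v1, matched by gene identifier (17905 of 17905 genes found); probe sets with several genes or none were not used for genes. A gene's probe set with the highest mean stood for it, and ratios are each line's log2 signal minus the control's. limma 3.58.1 (R 4.3.3) was fitted to the 3 arrays with an intensity trend, two-sided, at an adjusted p of 0.05, the control being assumed to vary like the lines; the fit was also run on simulated data. Python 3.11.15, numpy 2.4.6, pandas 2.3.3 and matplotlib 3.10.9 did the rest.

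The members, lists and thresholds were chosen with earlier results of these data known. Values on all arrays are given for every measured transporter; of the other iron and zinc genes, those with a difference of 1.5-fold or more in both lines were to be named, and NAS3, SAMS2, the IRO2/IRO3 gene, IDEF1 and the COPT and CAX genes were named after their values were seen. Of 30 leaf, 7 seed and 6 root marker symbols, 4, 5 and 3 had a probe set; the summed log2 signals of the leaf markers were 16.95, 16.72 and 17.17 and of the seed markers 10.39, 10.60 and 10.60 (control, B10201, B10301), the latter mostly from GLUA-2. A planned motif search was not run, since promoter sequences were not used here.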

Additional observations from a re-analysis of the deposited data

How the results depend on the processing

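The limma count of 0 rose to 128 probe sets without a floor (91 higher, 37 lower) and to 52 with robust moderation (43 higher, 9 lower); no transporter was among them, and 0 were called under the other settings. The 8 transporters with a difference of 1.5-fold or more in both lines numbered between 6 and 11 under other settings and 13 without a floor. The 6 were with quantile normalization (5 lower, 1 higher, against 6.98% and 6.95% of all genes). The 11 were with the floor at the 25th percentile (7 lower, 4 higher, against 8.86% and 9.55%). Without a floor 8 were lower and 5 higher, against 9.62% and 11.0%. There YSL1 joined the lower and HMA2, YSL10, YSL11 and YSL15 the higher ones. With a line left out the limit applied to the remaining line alone. The shares of all genes were then 11.8% lower and 11.2% higher in B10301, and 12.4% and 12.0% in B10201. With centred arrays 9 were lower and 0 higher, against 11.5% and 4.47% of all genes, and the median of all genes itself shifted to -0.18 in B10201 and -0.15 in B10301. The uptake median over gene means, -0.48, was -0.41 as deposited, -0.43 with quantile normalization, -0.62 with centred arrays, -0.67 by gene function and -0.45 with the stretches left out, no floor, a lower floor (25th percentile) or no x_at and s_at probe sets. The vacuolar median, -0.21, was -0.68 as deposited, -0.35 with centred arrays and -0.36 with the lower floor or none. The long-distance median, -0.23, turned to 0.097 with the lower floor and 0.12 with none, where 15 and 18 genes were counted in place of 9; it was -0.24 with quantile normalization, -0.37 with centred arrays and between -0.11 and -0.10 with a line left out. For a gene with 1 probe set outside the displaced stretches, settings that changed the floor, the probe sets or the stretches returned the main value. A gene with both lines on the same side of the control cannot reverse with a line left out. Many of the 266 values for the 27 single genes were therefore fixed in advance, and 255 of the 266 kept their direction. The exceptions were, with centred arrays, HMA5 (-0.0062), MTP5 (-0.085), NRAMP4 (-0.0030), YSL6 (-0.048) and YSL9 (-0.079); with quantile normalization, ZIP4 (0.019); as deposited, ZIP1 (0.33) and YSL14 (-2.24); and with a line left out, HMA5 (-0.0057 to 0.28), MTP5 (-0.032 to 0.15) and YSL9 (-0.10 to 0.23). Why these values moved was not tested beyond what the settings themselves change. No paired analysis was possible because the control group has 1 array and the labels number no replicates; with a line left out no residual degree of freedom remained, so those are values with no test.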

Other observations

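Several transporters lie side by side in the gene order of the japonica assembly ASM3414082v1, while the samples are of an indica cultivar. On chromosome 4, YSL13, YSL12 and YSL11 follow each other with 0 coding genes between them. The first 2 had similar log2 ratios, -1.01 and -0.83 for YSL13 and -0.85 and -0.65 for YSL12 (B10201, B10301), while YSL11 was below the floor. The adjacent YSL6 and YSL5, also on chromosome 4, differed: YSL5 was at -0.58 and -0.37 and YSL6 at 0.05 and 0.15. The adjacent YSL9 and YSL16 had ratios of -0.10 and 0.23 and of -0.09 and -0.36. On chromosome 7, NRAMP5 and NRAMP1 have 2 coding genes between them.

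Copper and cation carriers outside the transporter families were measured too. COPT1, a plasma membrane copper transporter of rice, was at 12.82 in control leaves, 12.44 in B10201 and 12.05 in B10301, below the control by log2 ratios of -0.39 and -0.78. The gene named COPT2 alone (-0.27 and -0.38) and COPT7 (-0.30 and -0.15) were also below it. Of the vacuolar cation exchangers, CAX1A was higher (0.38 and 0.36) and CAX1B lower (-0.70 and -0.41), and CAX2 (-0.13 and -0.13) and CAX3 (-0.19 and -0.0035) were close to the control. No gene in this paragraph passed the limma threshold.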
